A study of Mus musculus with 5 samples.

Results

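Group 2 innate lymphoid cells (ILC2s) of the lung are known for the type 2 cytokines IL-5 and IL-13, and the RNA of cytokines outside that set was read in 5 single-cell libraries of these cells. The 9 genes Il2, Il21, Il6, Lif, Il10, Tgfb1, Il17a, Il22 and Ifng were taken by symbol from the 27726 genes that the 5 count matrices share. Barcodes with at least 200 detected genes and under 5% mitochondrial counts were kept as cells. IL-2 and IL-21 act on lymphocytes through receptors that contain the common gamma chain, and IL-6 and LIF signal through gp130. IL-10 and TGF-β1 restrain immune responses, and TGF-β1 is secreted in a latent form that must be activated. IL-17A and IL-22 are the type 17 cytokines of γδ T cells, Th17 cells and ILC3s and act mainly on epithelium, while IFN-γ is the type 1 cytokine of NK cells, ILC1s and T cells.

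All cells came from lungs of female wild-type C57BL/6 mice, with several animals pooled in each library, and were sorted as lineage-negative ST2+ lymphocytes in which CD3 was one of the excluded lineage markers. The naïve library (n = 1) held cells of mice with no tumour, and the ta-non-activated libraries (n = 2, weeks 2 and 3) held uncultured cells of mice carrying a subcutaneous tumour of the lung tumour line TC1. The ta-activated libraries (n = 2, weeks 2 and 3) came from tumour-carrying mice of the same weeks and were cultured for a week with IL-33 and TSLP, and the study's methods add recombinant human IL-2 to that medium. Week and replicate number are the same within each group, and nothing states more than 1 pool of mice behind a library, so that any p-value measures the spread between these libraries only.

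The libraries held 1601 to 6389 cells with 9394957 to 61830293 unique molecular identifiers (UMIs, each a captured RNA molecule), and the median cell held 4396 to 16090 UMIs. Any pair of libraries shared 1 to 8 cell barcodes, at most 0.375% of a library. All 12 ILC2 markers looked at were detected in every library, and no cell of any library carried at least 3 markers of B cells or of dendritic cells. At least 3 of 9 T cell markers were carried by 18.1% of naïve cells, 7.46% and 59.1% of week 2 and week 3 ta-non-activated cells, and 20.8% and 26.8% of ta-activated cells. By the same rule the naïve library held 15 epithelial-like, 4 mast cell- or basophil-like, 2 myeloid-like and 2 fibroblast-like cells. The library labelled week 3 ta-non-activated stood apart, because 899 of its 1601 cells carried Cd3d or Cd3e RNA, and these CD3+ cells held 77.6% of its UMIs. Of its cells 777 carried at least 3 of 6 early-thymocyte genes, and 56.5% carried at least 3 of the ILC2 markers, against 97.3% to 98.8% in the other 4 libraries. The library labelled week 2 ta-non-activated stood apart in another way, with Il13 at 8861 CPM (counts per 1000000 UMIs of the library) against 55.6 CPM in the naïve and 19.6 CPM in the ta-non-activated library of week 3. Its Il9 was at 12576 CPM, against 0.0926 CPM in the naïve library and 0 in the week 3 ta-non-activated one, so that the ta-non-activated libraries differ widely from each other in both cell content and cytokine RNA. The cultured libraries of weeks 2 and 3 had Il13 at 3501 and 4318 CPM and Il9 at 115 and 342 CPM, both below the ta-non-activated library of week 2. Whether the labels of the ta-non-activated libraries are right was not tested, and every value below that sets ta-activated against ta-non-activated cells rests on them.

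Levels are given on the CPM scale, that is a gene's UMIs relative to the total of the library's kept cells, with exact Poisson 95% intervals. A carrier is a cell with at least 1 UMI of the gene, and its share has a Clopper-Pearson 95% interval. Both intervals cover counting error only, and in summed counts fewer cells of a type and less RNA per cell cannot be told apart. Where a gene had 0 UMIs, the limit is the level that 3 UMIs would give, which was 0.0926 CPM in the naïve library, 0.0903 CPM and 0.319 CPM in the week 2 and week 3 ta-non-activated libraries, and 0.0523 CPM and 0.0485 CPM in the week 2 and week 3 ta-activated libraries. Cells were put in classes by a UMI of Cd3d or Cd3e (CD3+) and by a UMI of Il1rl1, the gene of the IL-33 receptor chain ST2 (Il1rl1+). The second mark depends on level and depth, since Il1rl1 itself was at 791 CPM in the naïve library and at 46.7 to 121 CPM in the other 4.

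**Figure D1:**
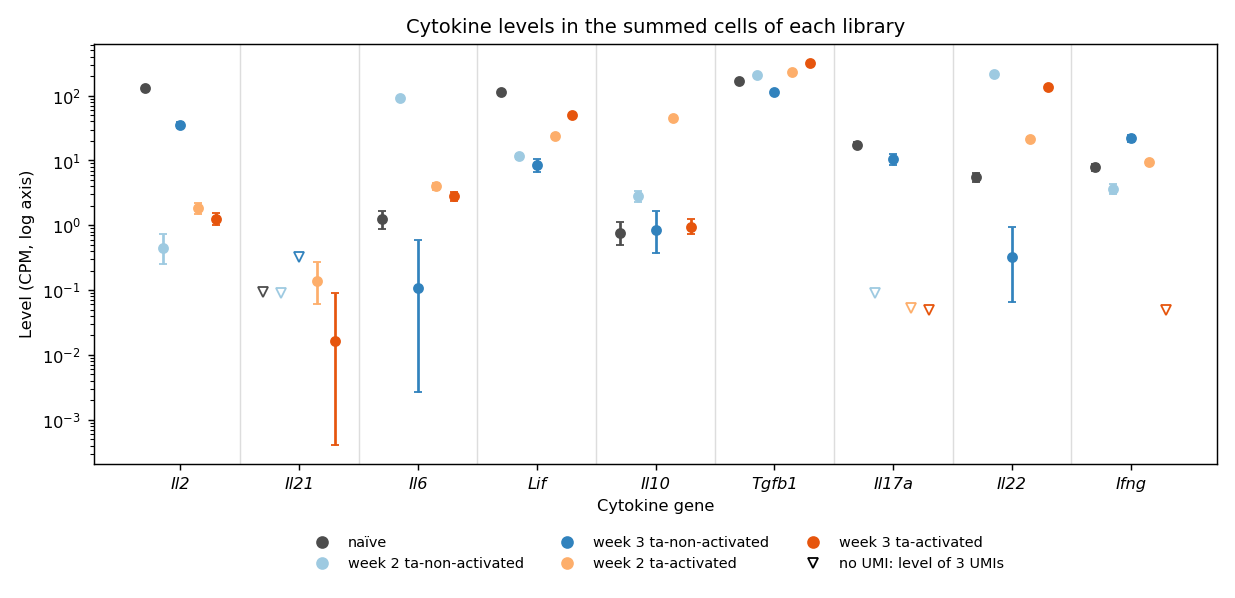
Level of each of the 9 cytokine genes in the 5 libraries, in CPM on a log axis, with exact Poisson 95% intervals as bars and open symbols at the 3-UMI limit where no UMI was found. Tgfb1 lies between 113 and 313 CPM throughout, while Il2 spans 0.451 to 133 CPM and Il22 spans 0.319 to 214 CPM.

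Of the 45 combinations of gene and library, 38 held at least 1 UMI. The 7 zeros belonged to Il21 in the 3 uncultured libraries, to Il17a in the week 2 ta-non-activated and both ta-activated libraries, and to Ifng in the week 3 ta-activated library. The library with the highest level was the naïve one for Il2, Lif and Il17a, the week 2 ta-non-activated one for Il6 and Il22, the week 3 ta-non-activated one for Ifng, the week 2 ta-activated one for Il10 and Il21, and the week 3 ta-activated one for Tgfb1.

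Some of these genes need their position and sequence to be read. All coordinates are of GRCm38 with the GENCODE M21 annotation. Il2 (chr3:37120523-37125959, minus strand, 4 exons) and Il21 (chr3:37222759-37232636, minus strand) are neighbours 96.8 kb apart, Il22 (chr10:118204942-118210047, plus strand, 5 exons) and Ifng (chr10:118441046-118445892, plus strand, 4 exons) lie 231 kb apart, and Il17a (chr1:20730905-20734496, plus strand) lies 42.6 kb from Il17f. The sequences upstream of Il2 and Lif are shown because these genes were the most widely carried in the naïve library after Tgfb1, and shared cells there. Each covers 230 bases, from 250 to 21 bases before the RefSeq start (GRCm38.p6), and overlaps no annotated exon. Capitals mark the core of the NFAT motif, GGAAA, and the AP-1 motif, TGANTCA, on either strand, and both stretches are read 5′ to 3′ on the strand of the gene. NFAT and AP-1 are transcription factors that act downstream of calcium and kinase signals in activated lymphocytes.
Il2, chr3:37125975-37126204, minus strand: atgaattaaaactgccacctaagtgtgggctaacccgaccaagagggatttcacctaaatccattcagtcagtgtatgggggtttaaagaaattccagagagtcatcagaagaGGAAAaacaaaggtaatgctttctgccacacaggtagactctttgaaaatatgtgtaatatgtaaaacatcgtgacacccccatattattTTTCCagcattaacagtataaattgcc
Lif, chr11:4257318-4257547, plus strand: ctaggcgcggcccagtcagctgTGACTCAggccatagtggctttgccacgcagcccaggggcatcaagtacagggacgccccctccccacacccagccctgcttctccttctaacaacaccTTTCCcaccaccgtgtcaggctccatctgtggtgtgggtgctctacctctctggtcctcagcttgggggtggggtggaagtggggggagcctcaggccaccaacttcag

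The Il2 stretch holds 2 NFAT cores and no AP-1 match, and the Lif stretch holds 1 of each. At least 1 NFAT core is found in 52.6% of 32851 RefSeq promoter windows and at least 2 in 18.9%, while 6.34% hold an AP-1 match, so these matches describe the letters and mark no site.

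Il22 has a near-identical copy, Iltifb (chr10:118289629-118295038, minus strand), 79.6 kb away. The coding parts are 98.3% identical and differ at 9 of 537 positions, and the last 300 bases of the transcripts, where a 3′ library is read, hold 15 mismatches. Bases 128 to 217 of both coding sequences (GENCODE M21 transcripts, counted from the A of the start codon) are shown because they hold 4 of these differences, A150G, C188T, T213C and C217T from Il22 to Iltifb, in capitals.
Il22, coding bases 128 to 217: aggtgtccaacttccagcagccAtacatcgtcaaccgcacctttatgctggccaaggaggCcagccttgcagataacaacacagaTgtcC
Iltifb, coding bases 128 to 217: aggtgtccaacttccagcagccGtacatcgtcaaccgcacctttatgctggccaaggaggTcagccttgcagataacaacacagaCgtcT

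Iltifb held 1, 9, 1, 0 and 34 UMIs in the naïve, week 2 and week 3 ta-non-activated, and week 2 and week 3 ta-activated libraries. How reads that match both genes were treated in counting is not given in the sources used here, so the split between Il22 and Iltifb is uncertain.

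Il2 encodes a growth factor for T cells and regulatory T cells that ILC2s also respond to. It was at 133 CPM (128.6 to 136.6) in the naïve library, from 4294 UMIs. In the ta-non-activated libraries it was at 0.451 CPM (0.253 to 0.745) in week 2 and at 34.8 CPM (31.1 to 38.8) in week 3, and in the ta-activated libraries at 1.83 CPM (1.497 to 2.22) and 1.26 CPM (0.997 to 1.57). All 4 libraries of tumour-carrying mice thus lay below the naïve one beyond counting error, and the ta-activated libraries lay between the ta-non-activated ones. Carriers were 1670 of 6389 naïve cells (26.1%) and 163 of 1601 cells of the ta-non-activated library of week 3 (10.2%). They were 15, 91 and 63 cells, or 0.823%, 3.14% and 1.65%, in the week 2 ta-non-activated, week 2 ta-activated and week 3 ta-activated libraries. With cells thinned to 2000 UMIs each, the shares were 15.3% in the naïve, 7.56% in the week 3 ta-non-activated and 0.166% to 0.602% in the other 3 libraries, in the same order of groups. The naïve Il2 was spread over many cells, since the 227 carriers with most Il2 were needed to reach 50% of its UMIs and the top cell held 1.79%.

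In the naïve library 3800 of the 4294 Il2 UMIs were in CD3- Il1rl1+ cells, where the level was 150 CPM and 1438 of 4933 cells were carriers. CD3+ cells held 185 of these Il2 UMIs, or 4.31%, beside 11.4% of all UMIs of the library. In the ta-non-activated library of week 3 the CD3- Il1rl1+ cells were at 183 CPM (97 of 388 cells), while the early-thymocyte-like cells were at 1.06 CPM (6 of 777 cells). CD3- cells alone were at 143 CPM in the naïve and 149 CPM in the ta-non-activated library of week 3, so the lower level of the whole week 3 library was not seen once its CD3+ cells were left out. Each of these Il2 values comes from 1 library.

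A check against cell types that should lack the gene gave a mixed picture for Il2. The naïve library held 98 endothelial-like cells (at least 3 of 8 endothelial markers, median 5226 UMIs against 4511 in the other cells), and 27.6% of them carried Il2 against 26.1% of the others. However, 70 of these 98 also carried Il1rl1 at 661 CPM for all 98, and of the 28 without Il1rl1, 3 carried Il2. Since most of the endothelial-like cells also carried Il1rl1, this comparison cannot give a background share for Il2. The same limit holds wherever these cells are used below. After thinning to 2000 UMIs, Il2 was found in 16.9% of CD3- Il1rl1+ cells (813 of 4800) and in 19.3% of endothelial-like cells (17 of 88). Other cells of the same library gave lower shares. These were 8.22% of NK- or ILC1-like cells without Il1rl1 (6 of 73) and 2.08% of γδ- or type 17-like cells without Il1rl1 (6 of 288). In the ta-non-activated library of week 3 the thinned shares were 18.2% (64 of 351) in CD3- Il1rl1+ cells and 0.129% (1 of 775) in early-thymocyte-like cells. The part of free RNA in these shares was not tested.

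Il21, which encodes a cytokine of follicular helper T cells, was the rarest of the 9 genes. It had 0 UMIs in the naïve and both ta-non-activated libraries, which allows up to 0.0926, 0.0903 and 0.319 CPM. In the ta-activated libraries it had 8 UMIs in 6 cells in week 2 (0.139 CPM) and 1 UMI in week 3 (0.0162 CPM). At this depth no difference in Il21 between libraries could be read.

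Lif (chr11:4257557-4272514, plus strand) encodes a gp130 cytokine of many cell types. It was at 113.9 CPM (110.2 to 117.6) in the naïve library, at 11.5 CPM (10.4 to 12.7) and 8.52 CPM (6.75 to 10.6) in the week 2 and week 3 ta-non-activated libraries, and at 24.2 CPM (23.0 to 25.5) and 49.8 CPM (48.1 to 51.6) in the week 2 and week 3 ta-activated ones. For Lif, as for Tgfb1, both ta-activated libraries lay above both ta-non-activated ones in summed CPM, and the naïve library was the highest of all for Lif. How many of all genes had such an order of libraries was not counted. Carriers of Lif made up 21.6% of naïve cells, 10.1% and 3.94% of ta-non-activated cells and 14.6% and 27.1% of ta-activated cells. Thinned to 2000 UMIs these shares were 13.0%, 2.43%, 2.14%, 2.59% and 8.02%. After thinning, the week 2 libraries of both groups were close, at 2.43% and 2.59%.

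Lif was higher in Il1rl1+ than in Il1rl1- cells in 5 of 5 libraries, by a mean of 1.17 (SD 0.71) on the log2(CPM + 1) scale. The exact two-sided sign-flip permutation test gave p = 0.0625 (n = 5 libraries), which is the smallest p that 5 libraries allow, given here unadjusted among the 18 such tests run over the 9 genes and both marks. In the naïve library the level in Il1rl1+ cells was 127 CPM against 47.4 CPM in the rest, and in the week 3 ta-activated library 65.1 CPM against 34.6 CPM. No other gene of the 9 reached that p in either contrast. The ta-non-activated library of week 2 showed almost no gap, with 11.95 CPM against 11.03 CPM. Its Il1rl1+ cells held 55.9% of the Lif UMIs, beside 53.9% of all UMIs. Among its CD3- cells the intervals of Il1rl1+ (10.4 to 13.8 CPM) and Il1rl1- cells (9.34 to 12.8 CPM) overlapped. The count of 5 of 5, and the sign-flip p with it, thus includes a library where no difference could be read. Endothelial-like cells carried Lif in 15.3% against 21.7% of the other naïve cells, which lies within the interval of the former (8.83% to 24.0%). The background check was set for genes that endothelium does not make, and Lif was not among them, so this share is no background.

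Among Il2 carriers the largest ratios over the remaining cells were those of Scgb1a1, Ccl1, Lif, Il13, Cxcl2, Bmp2, Ubtd2, Ccrl2, Fnip1 and Csf2. Ccl1, a chemokine, was at 799 CPM in Il2 carriers against 377 CPM in the rest, and Csf2, which encodes GM-CSF, at 480 CPM against 302 CPM. Among Lif carriers the genes were Scgb1a1, Il13, Ccl1, Csf2, Cxcl2, Il2, Mir155hg, Atf3, Areg and Egr3, of which Il13 was at 119 CPM against 32.7 CPM and Csf2 at 633 CPM against 257 CPM. Scgb1a1, a secretory gene of airway club cells that leads both lists, was found in the same share of Il2 carriers as of the rest (14.0% and 14.3%), so its ratio came from the number of UMIs in some cells. Deeper cells are more often carriers of any gene, and after thinning to 2000 UMIs 20.2% of the naïve Il2 carriers (190 cells) also carried Lif, against 11.7% of the other cells. Of the 10 genes of Il2 carriers, 4 came up again in the ta-non-activated library of week 3 (Bmp2, Ccl1, Csf2 and Cxcl2), and so did 3 of those of Lif carriers (Areg, Cxcl2 and Egr3). Carriers and the other cells of that library also differed in cell type. After thinning, Il2 was carried there by 18.2% of CD3- Il1rl1+ and 0.129% of early-thymocyte-like cells, and Lif by 4.56% and 1.03%. The part of cell type in this overlap was not tested. In the ta-non-activated library of week 2, 1 gene of Lif carriers came up again (Atf3). In both ta-activated libraries it was 0 of 10 for either gene.

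Il6 (chr5:30013114-30019981, plus strand) encodes a gp130 cytokine of the acute inflammatory response. It was at 1.23 CPM in the naïve library, at 90.9 CPM (87.7 to 94.2) and 0.106 CPM in the week 2 and week 3 ta-non-activated libraries, and at 3.99 CPM and 2.78 CPM in the week 2 and week 3 ta-activated ones. A single library thus carried nearly all of the Il6 RNA, and the ta-non-activated value of week 3 rests on 1 UMI. Carriers of Il6 were 527 of 1823 cells (28.9%) in the ta-non-activated library of week 2, against 0.0625% to 2.88% in the other 4. Thinned to 2000 UMIs the share was 9.51% there and at most 0.673% elsewhere. Il6 was at 85.4 CPM in CD3- Il1rl1+ and at 100.5 CPM in CD3- Il1rl1- cells of that library, and 61 cells held 50% of it. None of the 98 naïve endothelial-like cells carried it, which allows a share of up to 3.06%, a limit above the 0.548% of all naïve cells. Il6 was not among the genes set for the background check either.

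The cells with Il6 in the ta-non-activated library of week 2 had higher levels of Cxcl2 (141 CPM against 21.9 CPM in the rest), a neutrophil chemokine, and of Zbtb32, Tnfsf15, Hbegf, Csf2, Col18a1, Atf3, Il13, Sfn and Phlda1. Csf2 was at 2060 CPM against 1070 CPM, and Il13 at 12178 CPM against 6946 CPM. Il6 carriers thus also held a higher level of Il13, a type 2 cytokine gene, than the other cells of their library, as the Lif carriers did in the naïve library. The Il6 list was drawn without thinning, and the part of depth in it was not tested.

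Il10 (chr1:131019845-131024974, plus strand) encodes the anti-inflammatory cytokine of regulatory lymphocytes. It was at 0.772 CPM in the naïve library, at 2.80 CPM and 0.852 CPM in the week 2 and week 3 ta-non-activated libraries, and at 45.1 CPM (43.4 to 46.9) and 0.954 CPM in the week 2 and week 3 ta-activated ones. Only the week 2 ta-activated library stood out, and its week 3 counterpart was at the level of the uncultured libraries. Carriers were 377 of 2895 cells (13.0%) in that library and 2 to 23 cells in each of the others, and 3.72% of its cells were carriers after thinning to 2000 UMIs. A single cell held 256 of its 2588 Il10 UMIs, and 36 cells held 50%. Of the naïve endothelial-like cells 1.02% carried Il10 against 0.350% of the other cells. This is 1 of 98 cells, with an interval of 0.0258% to 5.55%, and most of the 98 also carried Il1rl1, so no background share for Il10 could be read.

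In the week 2 ta-activated library Il10 was at 72.1 CPM in CD3- Il1rl1+ and at 28.4 CPM in CD3- Il1rl1- cells. CD3+ Il1rl1- cells were at 94.3 CPM and CD3+ Il1rl1+ cells at 63.3 CPM, so all 4 classes carried it. The single cell with 256 Il10 UMIs was CD3+ Il1rl1-, and all CD3+ cells together held 643. The level of the CD3+ Il1rl1- class thus rests in large part on that cell. The genes that shared its carriers were Il24, Pth, Procr, Timp3, Cd24a, Slc13a5, Nupr1, Fcmr, Fam46c and Ctsh. Il24, which encodes a cytokine of the IL-10 family, was at 126 CPM against 7.72 CPM in the rest, and Pth, the parathyroid hormone gene, at 1561 CPM against 176 CPM. The cells were not thinned for this list, and the part of depth in it was not tested.

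TGF-β1 is encoded by Tgfb1 (chr7:25687002-25705077, plus strand, 7 exons), which was the only one of the 9 genes carried by at least 41.9% of the cells of every library. It was at 170 CPM (166 to 175) in the naïve library, at 207 CPM (202 to 211) and 113 CPM (106 to 120) in the week 2 and week 3 ta-non-activated libraries, and at 228 CPM (224 to 232) and 313 CPM (309 to 318) in the week 2 and week 3 ta-activated ones. Carriers were 47.2%, 88.8%, 41.9%, 82.1% and 88.7% of cells in that order. Thinned to 2000 UMIs the shares were 26.5%, 33.4%, 24.1%, 29.8% and 42.7%, and the spread between libraries was smaller than without thinning. By share of carriers, thinned or not, the week 2 ta-non-activated library lay above the week 2 ta-activated one, the reverse of their order in CPM. The low value of the ta-non-activated library of week 3 went with its CD3+ cells, since CD3+ Il1rl1- cells were at 67.3 CPM and CD3- cells alone at 265 CPM. Tgfb1 was carried by 45.9% of endothelial-like and 47.2% of other naïve cells, and endothelium makes it too.

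In the week 3 ta-activated library the genes with the largest ratios in Tgfb1 carriers were Timp3, Cd70, Mki67, Kif15, Selenom, Cenpf, Bub1b, Fam213a, Cit and Tnfrsf8. Mki67, a marker of cycling cells, was at 196 CPM against 63.2 CPM, and Cenpf, Kif15, Bub1b and Cit are genes of mitosis. With 3391 of 3822 cells as carriers, the remaining 431 are few. Deeper cells are more often carriers of any gene, and this list was drawn without thinning. The part of depth in it was not tested.

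**Figure D2:**
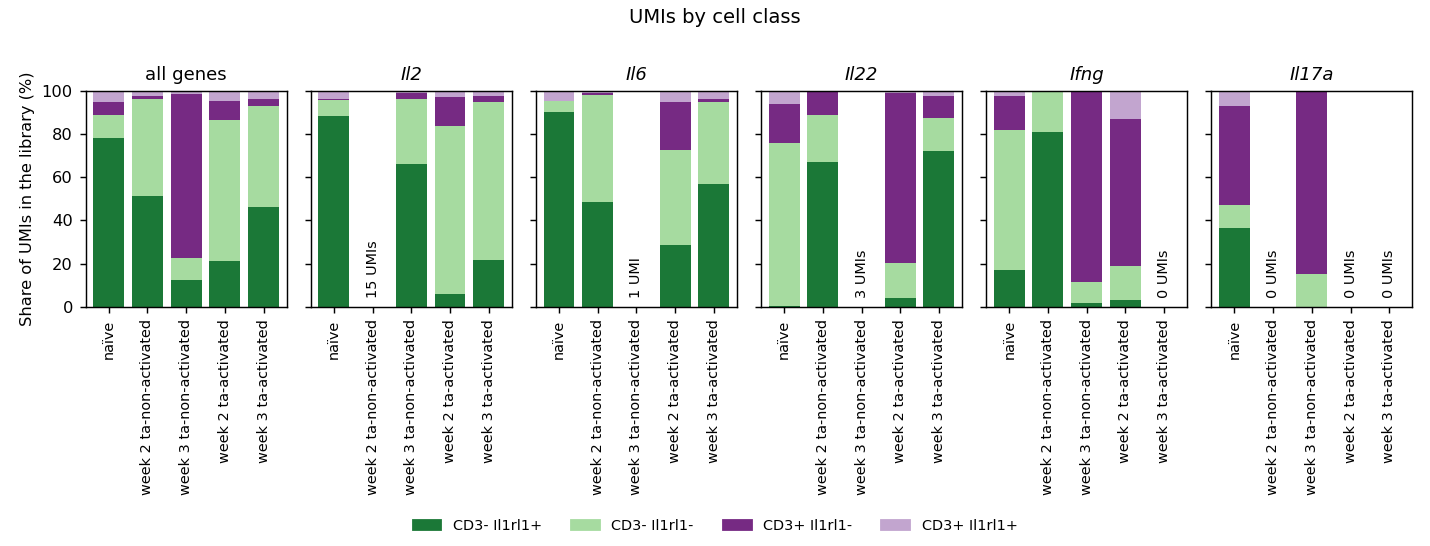
Stacked bars give the share of UMIs, in percent, held by the 4 cell classes (CD3+ or CD3-, Il1rl1+ or Il1rl1-) in each library, for all genes together and for Il2, Il6, Il22, Ifng and Il17a, with the UMI count written where it is under 20. CD3+ cells hold 77.6% of all UMIs of the ta-non-activated library of week 3 but 13 of its 327 Il2 UMIs, and most of the Ifng and Il22 UMIs of the week 2 ta-activated library. The top cells of that library held 468 and 431 of its 1251 Il22 UMIs.

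Il17a encodes the signature cytokine of type 17 lymphocytes. It had UMIs in 2 of the 3 uncultured libraries and in neither cultured one. Its level was 17.5 CPM (16.1 to 19.0) in the naïve library, from 566 UMIs in 102 cells, and 10.4 CPM (8.47 to 12.7) in the ta-non-activated library of week 3, from 98 UMIs in 13 cells. It had 0 UMIs in the ta-non-activated library of week 2, which allows 0.0903 CPM, and in both ta-activated libraries, which allows 0.0523 and 0.0485 CPM. CD3+ cells made up 9.89% of the naïve cells and held 300 of the 566 Il17a UMIs (53.0%) and 68 of the 102 carriers. In the ta-non-activated library of week 3 CD3+ cells held 83 of 98 UMIs, where they were also most of the cells. By marker lists, the 352 naïve γδ- or type 17-like cells held 316 UMIs at 145 CPM (60 carriers). CD3- Il1rl1+ cells of the naïve library held 207 UMIs in 26 cells, at 8.19 CPM. None of the 98 endothelial-like cells carried Il17a, but the limit of 3.06% lies above the naïve share of 1.60%.

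The carriers of Il17a in the naïve library shared several genes known from type 17 γδ T cells. Blk, a kinase, was at 241 CPM against 14.5 CPM in the rest, Il17f at 176 CPM against 9.42 CPM and Il23r, which encodes the IL-23 receptor, at 454 CPM against 44.8 CPM. Pde5a, Il1r1, Abi3bp, Sox13, Kcnc1, Cd163l1 and Cd3d completed the 10, with Cd3d at 327 CPM against 39.1 CPM. Blk, Il23r, Cd163l1 and Cd3d were also used to define the cell lists or the CD3+ mark, and Il17a itself was not.

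Il22 UMIs lay in few cells. The level was 5.46 CPM in the naïve library, 214 CPM (209 to 219) and 0.319 CPM in the week 2 and week 3 ta-non-activated libraries, and 21.8 CPM (20.6 to 23.1) and 138 CPM (135 to 141) in the week 2 and week 3 ta-activated ones. Behind these levels stood 15, 87, 2, 22 and 158 cells in that order. The top 10 cells held 97.2%, 59.9%, 100%, 97.9% and 75.7% of the Il22 UMIs, so a level of Il22 describes a few cells. A single cell of the week 3 ta-activated library held 3162 of 8546 UMIs. That cell had 111441 UMIs in all, lay above 99.9% of its library in depth, was CD3- Il1rl1+ and held 1918 UMIs of Il13. Without it Il22 was at 87.1 CPM, and without the deepest 5% of cells at 49.8 CPM. The share of carriers after thinning to 2000 UMIs was 3.04% in the week 2 ta-non-activated and 2.05% in the week 3 ta-activated library, against 0.0669% to 0.319% in the other 3.

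The class of the Il22 cells differed between libraries. In the week 2 ta-activated library CD3+ cells held 999 of 1251 UMIs, beside 13.5% of all UMIs, and CD3- cells alone were at 5.08 CPM. The top cells there, both CD3+, held 468 and 431 of these UMIs, and by number 7 of the 22 carriers were CD3+. CD3+ cells of the ta-non-activated library of week 2 held 791 of 7124 UMIs, all in 2 cells, and CD3- Il1rl1+ cells held 4759. In the week 3 ta-activated library they held 1085 and 6158 of 8546. The naïve library had 96 of its 177 Il22 UMIs in 6 γδ- or type 17-like cells, and CD3- Il1rl1+ cells held 1. None of the 98 endothelial-like cells of the naïve library carried Il22. In the week 3 ta-activated library the genes sharing its carriers were Il9, Timp1, Scin, Mmp10, Ccl1, Pmepa1, Timp3, Ccdc155, Bcl2a1b and Fgf2, with Il9, a type 2 cytokine, at 1786 CPM against 230 CPM. Of the 10 genes chosen the same way in the ta-non-activated library of week 2, 0 were among them, and of those in the week 2 ta-activated library 1 was (Timp3).

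**Figure D3:**
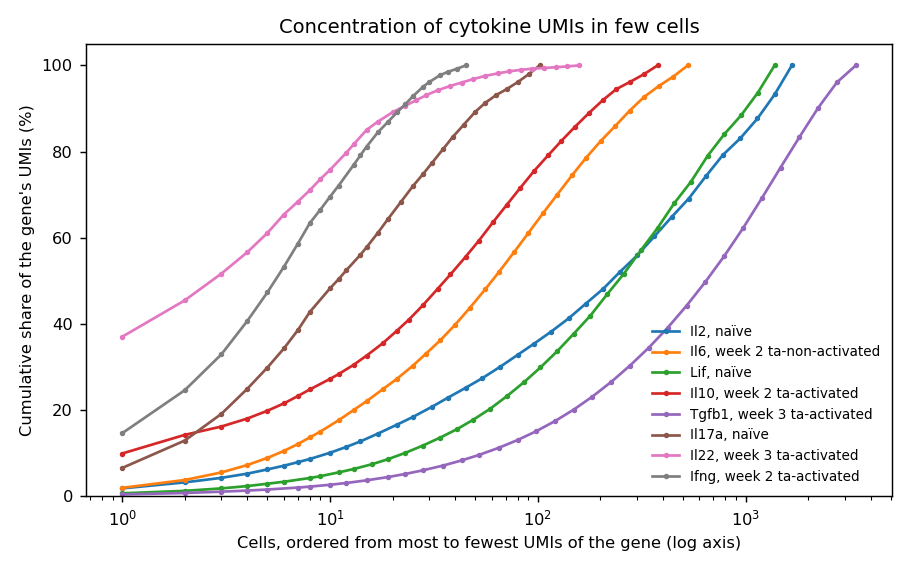
Cumulative share of a gene's UMIs (percent) over its carriers, ordered from most to fewest UMIs on a log axis, for 8 genes, each in the library with its most carriers, or for Ifng in the week 2 ta-activated one. The top cell of Il22 holds 37.0%, and 3 cells pass 50%, while Tgfb1 needs 647 cells.

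Ifng encodes IFN-γ, which activates macrophages. It was at 7.87 CPM (6.94 to 8.90) in the naïve library, at 3.61 CPM and 21.9 CPM (19.0 to 25.1) in the week 2 and week 3 ta-non-activated libraries, and at 9.43 CPM (8.66 to 10.3) in the week 2 ta-activated library. It had 0 UMIs in the 3822 cells of the week 3 ta-activated library, which allows up to 0.0485 CPM and 0.0785% of cells. Carriers were 103, 9, 61 and 45 cells in the libraries with a UMI. In the naïve library CD3- Il1rl1- cells held 166 of 255 UMIs at 48.3 CPM, and the 83 NK- or ILC1-like cells were at 211 CPM with 42 carriers. In the ta-non-activated library of week 3 CD3+ cells held 182 of 206 UMIs (88.3%), beside 77.6% of all UMIs. The early-thymocyte-like cells there were at 26.0 CPM with 47 carriers. In the week 2 ta-activated library CD3+ cells held 439 of 541 UMIs (81.1%), beside 13.5% of all UMIs. There 28 NK- or ILC1-like cells were at 282 CPM with 19 carriers. CD3- Il1rl1+ cells of the ta-non-activated library of week 2 held 97 of 120 Ifng UMIs in 4 cells, with 35, 30, 20 and 12 each. These 4 cells had 23649 to 144141 UMIs in all and 217 to 985 UMIs of Il13. The cells with Ifng were thus few in every library, and in 3 of the 4 libraries most of its UMIs lay outside the CD3- Il1rl1+ class. All Il1rl1+ cells together held 19.2% of the naïve Ifng UMIs, beside 83.1% of all UMIs of that library. In the week 2 and week 3 ta-non-activated libraries they held 80.8% beside 53.9%, and 2.43% beside 14.1%. The week 2 ta-activated library had 15.9% beside 26.1%, so in these last 2 libraries most UMIs of all genes lay outside Il1rl1+ cells too. Of the endothelial-like cells 1.02% (0.0258% to 5.55%) carried Ifng against 1.62% of the other naïve cells. After thinning to 2000 UMIs, Ifng was found in 28.8% of the naïve NK- or ILC1-like cells without Il1rl1 (21 of 73), in 0.125% of CD3- Il1rl1+ cells (6 of 4800) and in 0 of 88 endothelial-like cells (interval up to 4.11%).

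The naïve carriers of Ifng shared Xcl1, Ncr1, Tbx21, Ccl4, Il12rb2, Klrc1, Gimap4, Klrd1, Fcer1g and Nkg7. Xcl1, a chemokine of NK cells, was at 635 CPM against 9.88 CPM in the rest, Ncr1, which encodes the NK receptor NKp46, at 213 CPM against 4.03 CPM, and Tbx21, which encodes T-bet, in 47.6% of carriers against 1.48% of the rest. Ncr1, Tbx21 and Klrd1 belong to the NK or ILC1 marker list, which did not use Ifng. In the week 2 ta-activated library Fcer1g, Klrd1 and Xcl1 came up again. There 8 of the 22 Il22 carriers (36.4%) also held Ifng, against 1.29% of the other cells.

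Culture with IL-33 and TSLP was compared over replicates by setting the 2 ta-activated libraries against both ta-non-activated ones, on summed counts, with the quasi-likelihood test of edgeR and Benjamini-Hochberg adjustment over 12643 genes. It called 0 of 7 tested cytokine genes, with 0% of all genes called, 2120 genes at an unadjusted p under 0.05 and a smallest adjusted p of 0.243. Il21 and Il17a were not tested because of low counts. Lif had the smallest adjusted p of the 7, with a log2 fold change of 1.74 ± 0.51 (SE) and an edgeR adjusted p of 0.254, and in CD3- cells alone its log2 fold change was 0.92. DESeq2, run as an alternative, called 1041 of 12643 genes. Of the 7 cytokine genes tested it called 1, Lif (log2 fold change 1.72, DESeq2 adjusted p = 0.0470).

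For Tgfb1 the edgeR log2 fold change was 0.61 ± 0.50 (adjusted p = 0.559), and in CD3- cells alone it was 0.02. Il10 was at 3.46 ± 1.83 (edgeR adjusted p = 0.394), through the week 2 ta-activated library. Il2 was at -3.46 ± 1.77 (edgeR adjusted p = 0.385), or at -5.71 in CD3- cells, and Il6 was at -3.98 ± 2.27 (edgeR adjusted p = 0.418). Il22 was at -0.69 ± 2.24 (edgeR adjusted p = 0.891), and Ifng was at -1.40 ± 2.25 (edgeR adjusted p = 0.767). The libraries of both groups overlapped in level for these 5 genes, and did not for Lif and Tgfb1. The share of all tested genes without overlap was not counted, so this sets neither gene apart. The median of the 7 was -0.69, beside -0.02 over all genes tested. Without the ta-non-activated library of week 2 the log2 fold change was -4.42 for Il2, 5.03 for Il6 and -11.74 for Il17a. Without the ta-non-activated library of week 3 it was 1.53 for Il2 and -4.99 for Il6. The signs of Il2 and Il6 thus turned with the library left out. Those of Il10, Il22 and Ifng also turned when each library was left out in turn.

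**Figure D4:**
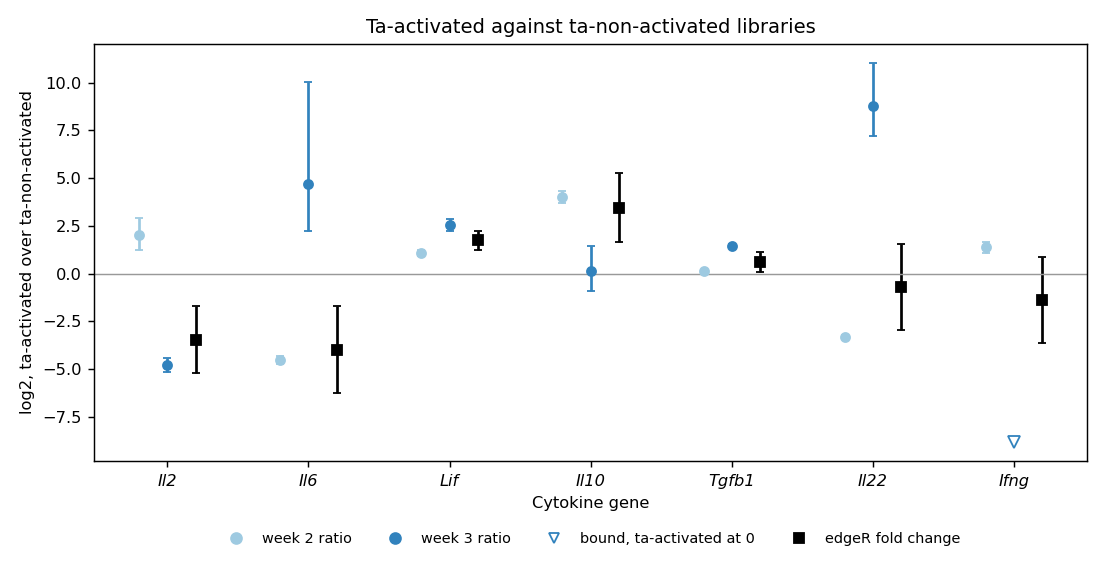
Log2 ratio of ta-activated to ta-non-activated libraries for the 7 tested cytokine genes, with circles for week 2 and week 3 (bars are 95% counting intervals). The open triangle is the ratio that 3 UMIs would give for Ifng at 0 UMIs. Squares give the edgeR log2 fold change (bars are its standard error). Both circles of Lif and Tgfb1 lie above 0, while those of Il2, Il6 and Il22 lie on opposite sides.

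Within a week there is 1 library on each side, so ratios carry counting intervals and no test. In week 2, 6 of the 7 genes with at least 20 UMIs in the pair were past 2-fold in the ta-activated library, where 34.5% of all 12520 genes were. Of these, 4 were higher, beside 25.0% of all genes, and 2 lower, beside 9.47%. In week 3 it was 7 of 8, where 43.1% of 12582 genes were, with 4 higher, beside 24.0%, and 3 lower, beside 19.1%. Il10 was 16.1-fold higher (13.1 to 20.05) in the ta-activated library in week 2 and 1.12-fold (0.533 to 2.72) in week 3. Lif was higher in both weeks, by 2.10-fold and 5.85-fold, and in CD3- cells by 1.95-fold (1.73 to 2.20) and 2.16-fold (1.63 to 2.93). Tgfb1 was 1.10-fold higher in week 2 and 2.78-fold in week 3, where the log2 ratio in CD3- cells was 0.24.

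Il2, Il6, Il22 and Ifng went in opposite directions in the 2 weeks. Il2 was 4.06-fold higher (2.35 to 7.504) in the week 2 ta-activated library and 27.6-fold lower (21.5 to 35.8) in the week 3 one. Il6 was 22.8-fold lower in week 2 and 26.1-fold higher (4.63 to 1038) in week 3, the latter over 1 UMI, and Il22 was 9.83-fold lower in week 2 and 433-fold higher (148 to 2099) in week 3, over 3 UMIs. Ifng was 2.61-fold higher in week 2, where CD3- cells alone had a log2 ratio of -0.87. In week 3 it was 452-fold lower when set against the 3-UMI limit of the library, and at least 364-fold lower by the exact counting interval. Il17a was 215-fold lower in week 3 against the same limit, and at least 171.6-fold lower by the exact interval.

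Against the naïve library, 7 of 8 genes were past 2-fold in the ta-non-activated library of week 2, where 59.8% of 12769 genes were, with 3 higher, beside 19.4%, and 4 lower, beside 40.4%. Of 8 genes, 5 were past 2-fold in the week 3 one, where 52.7% of 12673 genes were, with 1 higher, beside 19.4%, and 4 lower, beside 33.3%. These shares show how far the libraries differ over all genes. By the matrix headers the naïve library was counted with Cell Ranger 6.0.0 and the other 4 with 3.0.2. Tumour, library and counting version thus cannot be told apart in any value set against the naïve library, here or above. Lif was lower in both, by 9.88-fold and 13.4-fold. Il2 was 294-fold lower in week 2 and 3.81-fold lower in week 3, and in CD3- cells the week 3 log2 ratio was 0.06. Il6 was 73.7-fold higher in week 2 and 11.6-fold lower in week 3, and Il22 was 39.2-fold higher and 17.1-fold lower. Il17a was 194-fold lower in week 2 against the 3-UMI limit (at least 156.9-fold by the exact interval) and 1.67-fold lower in week 3. Ifng was 2.18-fold lower in week 2 and 2.79-fold higher in week 3. Il10 was 3.63-fold higher in week 2, and its week 3 ratio of 1.10 had an interval of 0.430 to 2.52. Tgfb1 was 1.21-fold higher in week 2 and 1.51-fold lower in week 3, while in CD3- cells the week 3 level was 265 CPM against 175 CPM in the naïve library, which is 1.51-fold higher.

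The genes around these cytokines were read from the same edgeR fit, in which 0 passed. Of 16 receptor genes 13 were tested, with a median log2 fold change of 0.18, and of 16 transcriptional regulators 15, with a median of 0.24. Of 16 related cytokines 11 were tested, with a median of 0.22, and of 8 genes of TGF-β activation 5, with a median of 0.33. The 6 type 2 reference genes had a median of 0.09. Maf, a regulator of Il10 in T cells, had a log2 fold change of 2.16 ± 0.40 (edgeR adjusted p = 0.243). It was at 37.6 and 40.5 CPM in the ta-non-activated and 226 and 146 CPM in the ta-activated libraries. Tgfbr2, which encodes a TGF-β receptor chain, had 1.45 ± 0.35 (edgeR adjusted p = 0.247), with 26.1 and 26.0 CPM against 62.7 and 90.7 CPM. Il11, a gp130 cytokine like Lif and Il6, had 4.99 ± 1.10 (edgeR adjusted p = 0.243) at levels of at most 2.26 CPM.

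Receptors for the cytokines were present at very different levels. Il2ra, the IL-2 receptor alpha chain, was at 425 CPM in the naïve library, at 322 and 136 CPM in the week 2 and week 3 ta-non-activated libraries and at 1107 and 356 CPM in the ta-activated ones. Il22ra1, which encodes a chain of the IL-22 receptor, had 0.0309 CPM in the naïve library and 0 in the other 4. Ifngr1, an IFN-γ receptor chain, was at 452 and 419 CPM in the naïve and week 3 ta-non-activated libraries and at 32.2 to 45.5 CPM in the other 3, so the ta-non-activated library of week 2 lay with the cultured ones here. Furin, which processes TGF-β1, was at 339 to 959 CPM, and Itgb8, whose protein activates latent TGF-β, was at most 0.942 CPM in any library.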

How the data were processed

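For each of 5 libraries made with a 3′ droplet kit, the authors deposited a matrix of unnormalized UMI counts by gene and barcode. The matrix headers name Cell Ranger 6.0.0 (naïve) and 3.0.2 (the other 4), and the submitters' processing notes list Seurat and GRCm38. Summed counts gave CPM, classes and ratios. Thinning drew 2000 UMIs from each deeper cell. No doublet caller was run, and the deepest 5% of cells were left out as an alternative. Cells were named "-like" with UMIs of at least 3 genes of a marker list. Genes sharing the carriers were the 10 with the largest log2 ratio of CPM + 5, among genes with at least 10 UMIs in carriers and in 10% of them, in the library with most carriers. These lists were drawn from unthinned cells. edgeR 4.0.16 (filterByExpr, TMM, glmQLFit, glmQLFTest, adjusted p threshold 0.05) and DESeq2 1.42.0 ran in R 4.3.3 on sums per library. The edgeR fit was tested on simulated data, and DESeq2 was not. Exact tests used scipy 1.17.1. Alternatives were all deposited barcodes, a mitochondrial limit of 10%, CD3- cells only, CD3- Il1rl1+ cells only, other CD3 calls, thinning, no filter on low counts, a joint fit of all 5 libraries, a replicate block, and leaving out each library. The members and lists were chosen with earlier results of these data known. Upstream sequence was found in RefSeq for 8 of the 9 genes (not Il10).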

Additional observations from a re-analysis of the deposited data

Results flagged for a closer look

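For 4 genes the ratio of the ta-activated to the ta-non-activated library pointed one way in week 2 and the other way in week 3. The ratio of Il2 was 4.06 in week 2 and 0.0362 in week 3. That of Il6 was 0.0439 in week 2 and 26.1 in week 3, and that of Il22 was 0.102 and 433. For Ifng it was 2.61 in week 2, while in week 3 the ta-non-activated library was at 21.9 CPM and the ta-activated library at 0. With 1 library for each group and week the difference between weeks was not tested, and week, pool of mice and library cannot be told apart. The week 3 ta-non-activated library had 56.2% CD3+ cells and the week 2 one 3.78%, and the week 2 one had Il13 at 8861 CPM and the week 3 one at 19.6 CPM. The part of these features in the opposite ratios was not tested. In CD3- cells Il2 was at 1.77 CPM in the ta-activated and 0.469 CPM in the ta-non-activated library in week 2, and at 1.29 and 149 CPM in week 3. Il6 was at 3.35 and 92.4 CPM in week 2 and at 2.83 and 0.475 CPM in week 3, and Il22 at 5.08 and 198 CPM and then at 130 and 1.43 CPM. In CD3- cells the ratios of these 3 genes pointed opposite ways in weeks 2 and 3. Ifng was there at 2.06 and 3.75 CPM in week 2 and at 0 and 11.4 CPM in week 3, lower in the ta-activated library in both weeks.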

How the results depend on the processing

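The edgeR comparison called 0 genes in the fit reported and under 10 alternatives that kept all libraries or left out a ta-activated one. Leaving out 1 library at a time gave 0 to 1646 genes: 1646 without the week 2 and 513 without the week 3 ta-non-activated library, where the lone library left is assumed to vary like the ta-activated pair. DESeq2 called 1041 genes. Over the fits without 1 library the log2 fold change ranged from -4.42 to 1.53 for Il2, -4.99 to 5.03 for Il6, -1.08 to 4.85 for Il10, -2.51 to 7.996 for Il22 and -11.75 to 0.17 for Ifng. With a replicate block for the week 0 genes were called and Il22 was at 1.98. The libraries share a tumour week by label, but those of 1 week did not deviate together (correlation -0.062, a single value since each group has 2 libraries).

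Of 32 combinations of gene and library, 5 had most of their UMIs in CD3+ cells, 11 when any of 3 CD3 chains made a cell CD3+, and 3 of 24 after thinning to 2000 UMIs. For Il1rl1+ cells it was 15 of 32, and 4 of 24 after thinning, which leaves fewer cells with the mark by construction. Over all genes, CD3+ cells held 77.6% of the UMIs of the week 3 ta-non-activated library and 3.79% to 13.5% elsewhere. Il1rl1+ cells held 83.1% in the naïve, 53.9% and 14.1% in the week 2 and week 3 ta-non-activated, and 26.1% and 49.9% in the ta-activated libraries. How many combinations lay above these shares was not counted. In CD3- cells alone the log2 ratio was -0.87 for Ifng in week 2 and 0.0598 for Il2 and 0.60 for Tgfb1 in the week 3 ta-non-activated over the naïve library. All 3 were opposite in sign to all cells. The Il2 ratio of 1.04 had a counting interval of 0.926 to 1.17, so no difference could be read for it. Of single levels, 134 stayed within their counting interval under other cell filters and 46 did not. Depth limits the rare genes: Il21 gives no order among the libraries, and week 3 ta-non-activated Il6 and Il22 rest on 1 and 3 UMIs.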
